A study of Homo sapiens with 6 samples.

Results

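The mitochondrial carrier family, gene symbols SLC25A, was followed in differentiated HepaRG cells with and without a fatty acid load. Members were the protein-coding rows of the deposited table whose symbol is SLC25A and a number, without SLC25A13, SLC25A15 and SLC25A20, which the choice of members left out. This gave 46 of 58037 gene rows and 45 symbols, since SLC25A6 is listed on both X and Y. HepaRG is an established human hepatocellular carcinoma line that differentiates in culture into hepatocyte-like and biliary-like cells. All 6 samples came from passages 15 to 18, grown for 14 days, differentiated for 14 days and held for 5 days in basal medium with insulin and hydrocortisone. The 3 control samples then received medium with 0.02% bovine serum albumin for 72 h. The 3 fatty acid samples received palmitate and oleate, 1 part to 2 parts and 0.5 mM in total, carried on the same albumin, also for 72 h. The labels do not say whether the samples of a group are separate cultures, and the p-values below therefore rest on a spread among libraries that may be technical. The series addresses how lipid loading, as a model of steatosis, affects genes of drug metabolism and transport.

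SLC25 proteins share a fold of paired transmembrane helices repeated around a central substrate site, and most lie in the inner mitochondrial membrane. They exchange nucleotides, phosphate, carboxylates, amino acids and cofactors between the cytosol and the matrix, so that oxidation of fuel in mitochondria can supply the rest of the cell. In hepatocytes they link fatty acid oxidation, the citrate used for lipid synthesis, the shuttles that carry reducing equivalents, and amino acid breakdown. The carriers are described below by their known substrates.

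Expression was measured by poly-A RNA-seq and deposited as FPKM, a count scaled to gene length and library size. Depth was 6331372 to 11821423 reads for controls and 8364570 to 15941353 reads for fatty acid samples. Mitochondrially encoded genes took 13.63 ± 1.37% (SD, n = 3) of control reads and 10.31 ± 1.43% of fatty acid reads, and their part in the results below was not tested beyond a scaling to nuclear reads. Genes that respond to a lipid load were higher: the lipid droplet coat gene PLIN2 rose from 71.9 ± 4.76 to 194.3 ± 10.1 FPKM, PDK4 and ANGPTL4 by 1.57 and 1.94 on the log2 scale (limma adjusted p = 8.74e-05 for each). Of 10 hepatocyte markers 9 fell and SERPINA1 rose, and their summed level was 14942 to 15342 FPKM in control and 10009.6 to 10521 FPKM in fatty acid libraries. Of 7 biliary markers 4 were tested and 0 passed (limma, 1 at an unadjusted p under 0.05, 0 with limma voom), with summed levels of 362 to 435 and 361 to 375 FPKM and EPCAM at 0. The 7 mesenchymal markers summed to 41.5 to 43.5 and 37.8 to 42.8 FPKM, with THY1 at 0 and 0 of 4 tested called (limma; 2 at an unadjusted p under 0.05, 2 lower with voom). The 9 markers of immune and endothelial cells summed to 51.3 to 55.9 and 40.2 to 41.6 FPKM, mainly from CD14 and KDR. Of the 3 tested only KDR was called, falling from 40.7 ± 3.48 to 25.6 ± 0.972 FPKM (limma adjusted p = 0.00195). The other 2 were higher and did not pass: CD14 (10.6 ± 2.75 to 12.7 ± 0.736 FPKM, limma adjusted p = 0.269) and LYZ (1.20 ± 0.359 to 1.76 ± 0.378 FPKM, 0.19). PECAM1, not tested, was also higher (0.338 ± 0.0495 to 0.540 ± 0.00208 FPKM). The lower sum therefore reflects KDR and not the list as a whole. CDH5 was at 0, and PTPRC, CD68, CD163, PECAM1 and VWF averaged below 0.5 FPKM. The part of the falling hepatocyte markers in the carrier results was not tested, and in bulk RNA fewer cells of a type and less RNA per cell cannot be told apart.

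The promoter letters of 4 carriers are given first. SLC25A4 and SLC25A5 encode the same kind of ADP/ATP carrier and differ below in level and in response, SLC25A33 is a riser, and SLC25A42 fell and holds several copies of 1 motif. RefSeq's table of promoter windows (GRCh38.p14) had 37 of the 45 symbols, in 47 windows, and the called carriers SLC25A30 and SLC25A35 had no entry. The window of SLC25A11, also called, held none of the motifs searched and is not printed. Each line runs 5′ to 3′ on the gene's own plus strand up to the start of the deposited or RefSeq gene, whichever comes first, and capitals mark CCAAT (or ATTGG, its reverse complement) and the E-box CACGTG, of which SLC25A5 has none. The stretches are chr4:185143016-185143240, chrX:119468194-119468399, chr1:9539215-9539464 and chr19:19063744-19063993, in that order.
SLC25A4: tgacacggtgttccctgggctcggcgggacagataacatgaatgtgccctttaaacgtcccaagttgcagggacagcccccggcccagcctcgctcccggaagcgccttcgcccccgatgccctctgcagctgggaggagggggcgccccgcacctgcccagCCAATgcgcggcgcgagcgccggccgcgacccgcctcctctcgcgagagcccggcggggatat
SLC25A5: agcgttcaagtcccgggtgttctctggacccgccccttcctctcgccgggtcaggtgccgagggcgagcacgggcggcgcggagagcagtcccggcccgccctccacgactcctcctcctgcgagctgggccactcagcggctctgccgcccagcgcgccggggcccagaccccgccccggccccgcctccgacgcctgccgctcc
SLC25A33: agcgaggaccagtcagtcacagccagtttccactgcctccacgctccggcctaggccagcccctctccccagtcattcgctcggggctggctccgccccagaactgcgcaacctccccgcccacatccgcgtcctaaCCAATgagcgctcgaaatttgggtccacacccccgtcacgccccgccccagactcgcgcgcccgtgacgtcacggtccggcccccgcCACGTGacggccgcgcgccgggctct
SLC25A42: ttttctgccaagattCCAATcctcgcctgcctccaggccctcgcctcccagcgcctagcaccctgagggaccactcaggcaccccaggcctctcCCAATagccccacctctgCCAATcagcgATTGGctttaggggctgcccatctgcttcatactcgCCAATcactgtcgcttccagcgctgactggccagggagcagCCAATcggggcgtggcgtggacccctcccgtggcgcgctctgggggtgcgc

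Motifs were searched on both strands in the 250 bases before each RefSeq start. CCAAT, bound by the factor NF-Y, was in 20 of 47 carrier windows (42.6%) and in 32.0% of all 35116 windows. The SLC25A42 stretch holds 6 matches, and SLC25A4 and SLC25A33 hold 1 each. At least 6 are reached in 0.105% of all windows. SLC25A42 was picked from 47 carrier windows partly for its copies, so that share does not measure how unusual it is. The E-box CACGTG was in 7 carrier windows (14.9%, against 6.34% of all), SLC25A33 among them. TATAAA was in 4 (8.51%, against 10.7%), and that of SLC25A5 begins 27 bases before the RefSeq start, in bases not printed. AGGTCA, a single nuclear receptor site, was in 4 (8.51%, against 12.1%). The PPAR/RXR direct repeat, a pair of these sites 1 base apart, was in 0 carrier windows and in 0.0171% of all, and any window with it also counts for AGGTCA. These matches are letters in a window and were not tested against the expression values.

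A minority of the carriers passed the threshold between the groups, with small differences. Carriers that did not pass are not shown to be unchanged. Of the 36 rows with a mean of at least 0.5 FPKM, SLC25A42, SLC25A35, SLC25A4 and SLC25A11 fell and SLC25A33 and SLC25A30 rose, while 30 did not pass (limma on log2(FPKM + 0.5), Benjamini-Hochberg over all 14661 genes tested). The carriers called made up 16.7% of those tested, beside 12.9% of all genes. Those lower were 4 of the 36 carriers, where 4.68% of all genes were lower, and those higher were 2 of the 36, where 8.22% of all were higher. The groups did not overlap for 13 of the 36, or 36.1%, beside 37.1% of all genes. The shares of 16.7% and 36.1%, which take both directions together, lie near the background. The counts called in each class and gene list stand beside the same 12.9% of all genes, and were not tested against it. Log2 fold changes, fatty acid minus control, ran from -0.53 for SLC25A27 to 0.39 for SLC25A30, and 0 of the 36 reached 1 in size. Their median was -0.07, with a median size of 0.14, and over all genes the medians were 0.04 and 0.17. On this scale the change of low genes is understated. All 6 calls were lost when fatty acid replicate 1 was left out, and again when replicate 2 was. The 2 rises were also lost under 3 other scalings (median of ratios, quantile, nuclear reads), which gave 46.0% to 49.5% of all called genes as higher, against 63.7% here. With TPM the all-gene median was 0.18; that scaling gave 86.5% of calls as higher, and called 3 carriers higher and 1 lower.

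**Figure D1:**
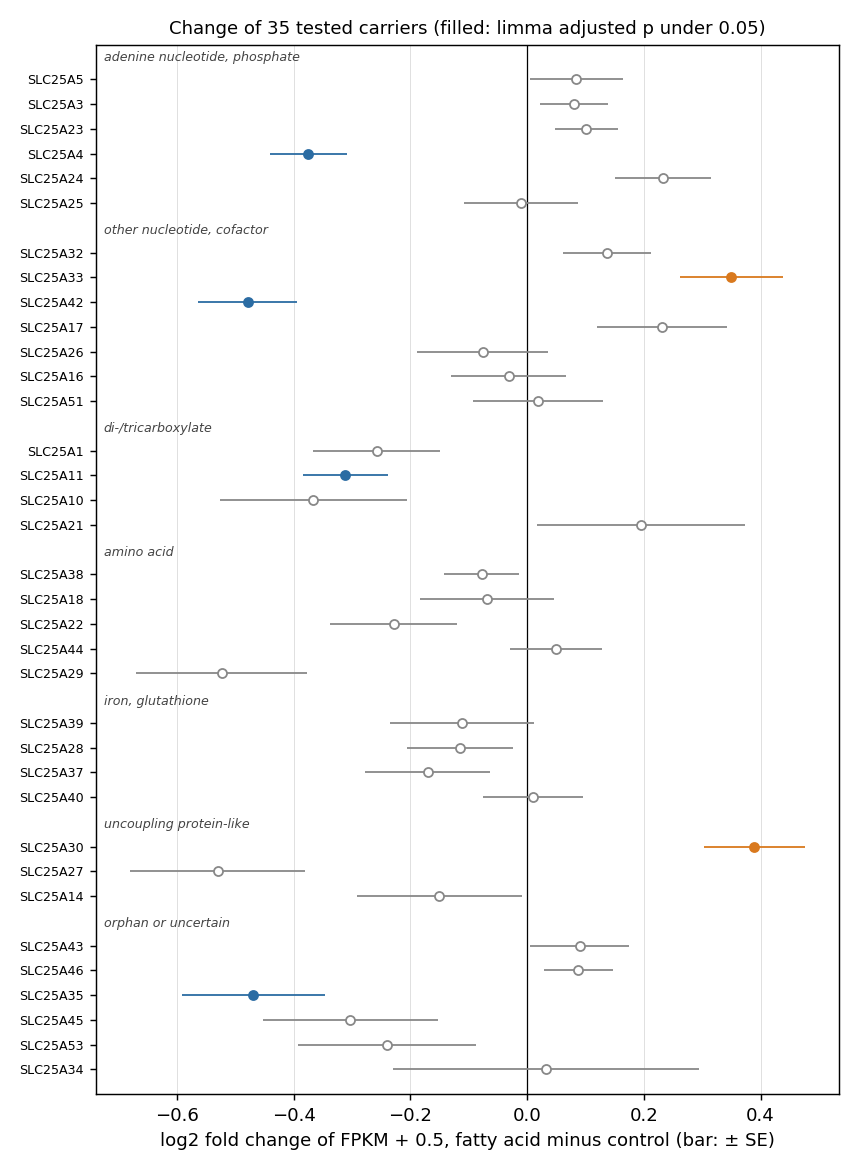
Log2 fold change of FPKM + 0.5 (fatty acid minus control, x axis, bars ± SE) for 35 of the 36 tested carriers grouped by substrate. Filled points passed the limma threshold: 4 lie to the left of 0, 2 to the right, and all points lie between -0.53 and 0.39.

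The summed level of the members followed here was dominated by 1 gene. That sum leaves out SLC25A13, SLC25A15 and SLC25A20, and it counts SLC25A6 as 0 although its level was not measured. Per length, SLC25A5 took 42.6% of the summed FPKM of all members, followed by SLC25A3 with 9.28%, SLC25A1 with 7.88% and SLC25A39 with 5.04%. The sum over these members was 597 ± 47.2 FPKM in controls and 594 ± 17.4 FPKM with fatty acid (SD, n = 3), which differed by less than the spread between replicates. By level the called carriers ranked from 6 (SLC25A11, 3.42% of the sum) to 29 (SLC25A35, 0.421%).

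**Figure D2:**
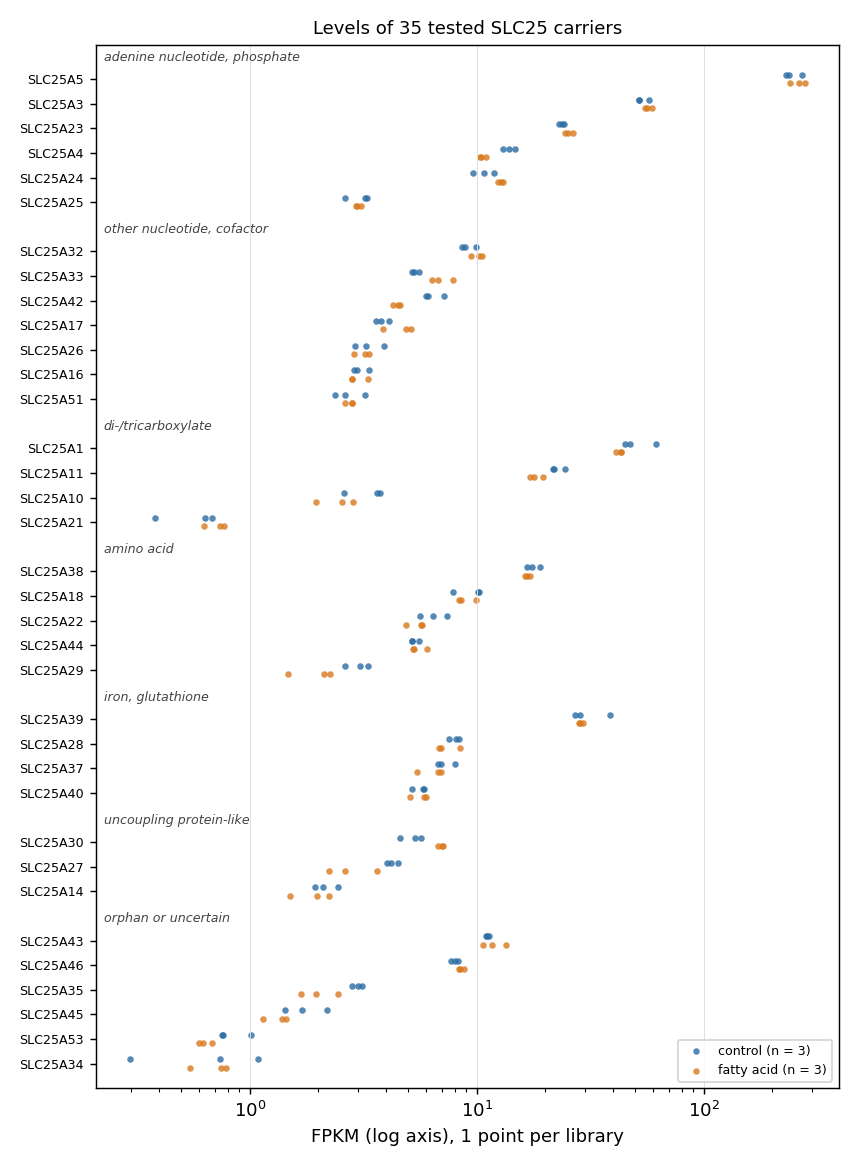
FPKM of 35 of the 36 tested carriers on a log axis, with 1 point per library and 3 libraries per group, ordered by level within each substrate class. SLC25A5 stands at 230 to 279 FPKM in all 6 libraries, and the points of most carriers overlap between the groups.

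Adenine nucleotide and phosphate carriers feed the ATP synthase and return its product. SLC25A5 (ANT2, chromosome X, 119468400 to 119471319) exchanges ADP for ATP and had 270.2, 238.0 and 230.0 FPKM in controls and 263.4, 278.5 and 240.4 FPKM with fatty acid. The groups overlapped, and the log2 fold change of 0.08 ± 0.08 did not pass (limma adjusted p = 0.511), with a 95% interval of -0.10 to 0.27. Its paralog SLC25A4 (ANT1, chromosome 4, 185143241 to 185150382), known best from heart and muscle, had 14.8, 13.8 and 13.05 FPKM in controls and 10.3, 10.4 and 11.0 FPKM with fatty acid. All fatty acid libraries lay below all controls, and the mean fell by 23.8% (log2 fold change -0.38 ± 0.07, limma adjusted p = 0.0138, 417 to 852 reads a library). SLC25A4 was the minor form of the pair, with a share of 5.18%, 5.49% and 5.37% of the 2 genes' summed FPKM in controls and 3.76%, 3.60% and 4.39% with fatty acid. The shares did not overlap, for a pair chosen after its values were seen. SLC25A4 was itself lower in every fatty acid library while SLC25A5 overlapped, so the share largely restates the fall of SLC25A4. The exact two-sided permutation p of 0.1, the smallest that 3 against 3 allows, is not further evidence for that fall. Rescaling to TPM ended the SLC25A4 call (limma adjusted p = 0.0739), as did omitting fatty acid replicate 1 (0.0737) or 2 (0.0705), and its range over all alternatives was 0.00221 to 0.0739. SLC25A5 has many processed copies in the genome whose reads may be confused with its own, so its level is uncertain to that extent.

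The third ADP/ATP carrier, SLC25A6 (ANT3), is listed at 0 in every library in both of its rows. It lies in the region that X and Y share, and 35 of the 36 protein-coding rows of genes listed on both chromosomes are at 0 in all 6 libraries, so its level was not measured here. SLC25A31 (ANT4), the testis form, had 1 read in control replicate 1 and none elsewhere. Its 0 reads in the fatty acid libraries allow a level of up to 0.0421 FPKM (3 reads over the group, counting error only). SLC25A3 (chromosome 12, 98593591 to 98606379), which imports phosphate and also copper, had 53.7 ± 3.06 FPKM in controls and 56.8 ± 1.99 FPKM with fatty acid (log2 fold change 0.08 ± 0.06, limma adjusted p = 0.385).

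The calcium-regulated carriers SLC25A23, SLC25A24 and SLC25A25 exchange ATP-magnesium for phosphate and so set the size of the matrix adenine nucleotide pool. SLC25A24 had 9.64, 10.8 and 12.0 FPKM in controls and 12.4, 12.8 and 12.99 FPKM with fatty acid. Its groups did not overlap, but the difference did not pass (0.23 ± 0.08, limma adjusted p = 0.104), except after rescaling to TPM (0.0202) and with limma voom on recovered reads (0.043). SLC25A23 had 23.7 ± 0.637 and 25.5 ± 1.01 FPKM, also without overlap (adjusted p = 0.245 by limma). SLC25A25 had 3.04 ± 0.366 and 3.00 ± 0.0855 FPKM. Their relative SLC25A41, a neighbour of SLC25A23 on chromosome 19, had 1 read in all 6 libraries together. Of this class 6 carriers were tested, 1 fell and 0 rose by limma, or 16.7% called beside 12.9% of all genes. With voom 1 was lower and 1 higher.

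Carriers of other nucleotides and cofactors held a fall and a rise among 8 tested, or 25.0% called beside 12.9% of all genes. SLC25A42 (chromosome 19, 19063999 to 19112888) brings coenzyme A, the handle for every fatty acid oxidized in the matrix, into mitochondria in exchange for adenine nucleotides. It had 7.18, 6.12 and 5.99 FPKM in controls and 4.29, 4.48 and 4.61 FPKM with fatty acid. All fatty acid libraries lay below all controls, and the mean fell by 30.6% (log2 fold change -0.48 ± 0.08, limma adjusted p = 0.0141, 162 to 332 reads a library). Omitting fatty acid replicate 1 (0.0706) or 2 (0.0634) ended the call, which held in the 15 other alternatives, from 0.00189 up, including all 4 scalings. Its stretch of promoter is the one with 6 CCAAT matches above, which were not tested against its level.

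SLC25A33 (chromosome 1, 9539482 to 9585179) imports pyrimidine nucleotides for mitochondrial DNA and RNA synthesis. It had 5.59, 5.16 and 5.31 FPKM in controls and 7.85, 6.76 and 6.35 FPKM with fatty acid. All fatty acid libraries lay above all controls, and the rise of 30.4% was called (0.35 ± 0.09, limma adjusted p = 0.0414, 126 to 390 reads). The call was lost in 11 of 17 alternatives, among them the omission of any 1 library (adjusted p 0.0527, 0.0831 and 0.0971 without control replicates 1, 2 and 3, and 0.133, 0.117 and 0.0531 without fatty acid replicates 1, 2 and 3) and scaling by median of ratios, quantiles or nuclear reads (0.0525 to 0.0618). The other pyrimidine nucleotide carrier, SLC25A36, had 23 control reads and 15 fatty acid reads and was not tested.

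The highest carrier of this class was SLC25A32, linked to folate and FAD transport. It had 8.58, 9.90 and 8.87 FPKM in controls and 10.5, 10.2 and 9.44 FPKM with fatty acid, with overlapping groups (0.14 ± 0.08, limma adjusted p = 0.263). SLC25A17, which lies in the peroxisomal rather than the mitochondrial membrane and carries coenzyme A and related cofactors, had 3.83 ± 0.268 and 4.61 ± 0.673 FPKM (adjusted p = 0.205 by limma). SLC25A51, the NAD carrier, had 2.73 ± 0.436 and 2.76 ± 0.103 FPKM. Its whole span lies inside another same-strand protein-coding gene at 0.0077 FPKM, so reads of shared exons may not have been counted for SLC25A51. The S-adenosylmethionine carrier SLC25A26 and SLC25A16, a relative of SLC25A42, had limma adjusted p of 0.683 and 0.856. SLC25A52, a close relative of SLC25A51, had 3 reads in each group.

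Di- and tricarboxylate carriers move citrate, malate and 2-oxoglutarate. Of 4 tested 1 was called, or 25.0% beside 12.9% of all genes. SLC25A11 (chromosome 17, 4937130 to 4940251), which exchanges 2-oxoglutarate for malate in the malate-aspartate shuttle, was the one called. It had 24.4, 21.6 and 21.9 FPKM in controls and 17.2, 19.5 and 17.8 FPKM with fatty acid. The groups did not overlap, and the mean fell by 19.9% (log2 fold change -0.31 ± 0.07, limma adjusted p = 0.0338, 365 to 757 reads). The call was lost in 9 of 17 alternatives, among them those without control replicate 1 (0.053) or 3 (0.0659), without fatty acid replicate 1 (0.136), 2 (0.0645) or 3 (0.0937), in TPM (-0.18, 0.214), with no expression filter (0.0714) and without the intensity trend (0.072). Its first 244 bases overlap RNF167 on the opposite strand (27.4 FPKM), and without a stated strand setting reads there cannot be assigned with certainty.

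SLC25A1 (chromosome 22, 19175575 to 19178830) exports the citrate from which cytosolic acetyl-CoA for lipid synthesis is made. It was the highest of the class, with 61.4, 45.1 and 47.5 FPKM in controls and 43.2, 41.0 and 43.2 FPKM with fatty acid. The groups did not overlap, control replicate 1 stood above the other 2 controls, and the difference did not pass (-0.26 ± 0.11, limma adjusted p = 0.16), except with limma voom (0.0468). SLC25A10, the malate and succinate carrier, had 3.32 ± 0.632 and 2.46 ± 0.449 FPKM (-0.37 ± 0.16, limma adjusted p = 0.17). Its span lies largely inside another same-strand protein-coding gene listed at 0, so reads of shared exons may not have been counted for it. SLC25A21, the oxodicarboxylate carrier of lysine and tryptophan breakdown, had 0.567 ± 0.161 and 0.714 ± 0.0764 FPKM from 9 to 41 reads a library. The summed level of the class was 90.1, 69.7 and 73.8 FPKM in controls and 63.7, 63.2 and 64.5 FPKM with fatty acid, without overlap. The sum is mostly SLC25A1 and SLC25A11, so it largely restates their values and is no sign of a fall across the class. It is given after its values were seen, and the sums of all other classes overlapped between the groups.

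Of the amino acid carriers 5 were tested and 0 passed by limma, where 12.9% of all genes did. Of these, 1 was at an unadjusted p under 0.05, and 1 was lower with voom. SLC25A38 (chromosome 3, 39383348 to 39397351), which imports glycine for heme synthesis, was the highest, with 19.1, 17.5 and 16.6 FPKM in controls and 16.3, 17.2 and 16.7 FPKM with fatty acid, overlapping (-0.08 ± 0.07, limma adjusted p = 0.452). The glutamate carriers SLC25A18 and SLC25A22 had 9.42 ± 1.35 and 6.48 ± 0.891 FPKM in controls and 8.92 ± 0.834 and 5.44 ± 0.483 FPKM with fatty acid (0.721 and 0.202 by limma). SLC25A44, a branched-chain amino acid carrier, had 5.31 ± 0.233 and 5.53 ± 0.452 FPKM.

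SLC25A29 (chromosome 14, 100291111 to 100306547), a carrier of basic amino acids, came closest in this class. It had 3.31, 2.63 and 3.05 FPKM in controls and 2.26, 1.48 and 2.11 FPKM with fatty acid, with all fatty acid libraries below all controls. The log2 fold change was -0.52 ± 0.15 (limma adjusted p = 0.0568), which passed in 3 of 17 alternatives, among them a minimum of 2 FPKM (0.0398) and limma voom (0.00319). SLC25A12, the calcium-regulated aspartate/glutamate carrier typical of brain and muscle, had 12 reads in control and 7 in fatty acid libraries and was not tested. The ornithine carrier SLC25A2 had 1 read in all, and its whole span lies within TAF7 on the same strand (17.6 FPKM), so shared reads may not have been counted for it.

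Iron and glutathione carriers gave no call: of 4 tested 0 passed by limma, where 12.9% of all genes did. There were 0 at an unadjusted p under 0.05 and 0 with voom, and their groups overlapped without exception. SLC25A39 (chromosome 17, 44319625 to 44324870), which brings glutathione into the matrix, had 38.6, 27.0 and 28.6 FPKM in controls and 28.5, 28.1 and 29.3 FPKM with fatty acid (-0.11 ± 0.12, limma adjusted p = 0.576). Control replicate 1 stood apart from the other 5 libraries, and without it the log2 fold change was 0.04. Its partner SLC25A40 had 5.61 ± 0.369 and 5.66 ± 0.482 FPKM, with a 95% interval of the log2 fold change of -0.19 to 0.21. The iron importers SLC25A28 (mitoferrin-2) and SLC25A37 (mitoferrin-1) had 8.02 ± 0.417 and 7.25 ± 0.648 FPKM in controls and 7.39 ± 0.876 and 6.40 ± 0.828 FPKM with fatty acid (0.427 and 0.319 by limma).

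The carriers that resemble uncoupling proteins went both ways. SLC25A30 (chromosome 13, 45393316 to 45418455), a carrier first described in kidney, had 4.58, 5.67 and 5.37 FPKM in controls and 7.07, 7.06 and 6.72 FPKM with fatty acid. All fatty acid libraries lay above all controls, and the mean rose by 33.5% (log2 fold change 0.39 ± 0.09, limma adjusted p = 0.0289, 244 to 728 reads). The call was lost without control replicate 3 (0.0621), without fatty acid replicate 1 (0.114), 2 (0.111) or 3 (0.0667), with no filter (0.0666), with scaling by median of ratios (0.0508), quantiles (0.0548) or nuclear reads (0.0536), and without the intensity trend (0.0538). Its ends overlap TPT1-AS1 and SLC25A30-AS1 on the other strand by 98 and 294 bases, both under 0.6 FPKM.

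SLC25A27 (UCP4, chromosome 6, 46652915 to 46678193), best known in neurons, had 4.17, 4.04 and 4.50 FPKM in controls and 2.62, 2.22 and 3.64 FPKM with fatty acid. Its groups did not overlap either, with the fatty acid libraries lower and replicate 3 nearest to the controls. The log2 fold change of -0.53 ± 0.15, close to that of SLC25A29, did not pass (limma adjusted p = 0.0579). It passed in 4 of 17 alternatives, among them those without fatty acid replicate 3 (-0.70, 0.0192), with a minimum of 2 FPKM (0.0375) and with limma voom (0.0153). The share of SLC25A30 in the 2 genes' summed FPKM was 52.3%, 58.4% and 54.4% for controls against 73.0%, 76.1% and 64.8% for fatty acid libraries. The shares did not overlap, for a pair also chosen after its values were seen. They could not have overlapped, since SLC25A30 was higher and SLC25A27 lower in every fatty acid library. The exact two-sided permutation p of 0.1, the smallest possible, was therefore fixed by those values and adds nothing to them. SLC25A14 (UCP5) had 2.16 ± 0.259 and 1.91 ± 0.372 FPKM (adjusted p = 0.506 by limma).

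**Figure D3:**
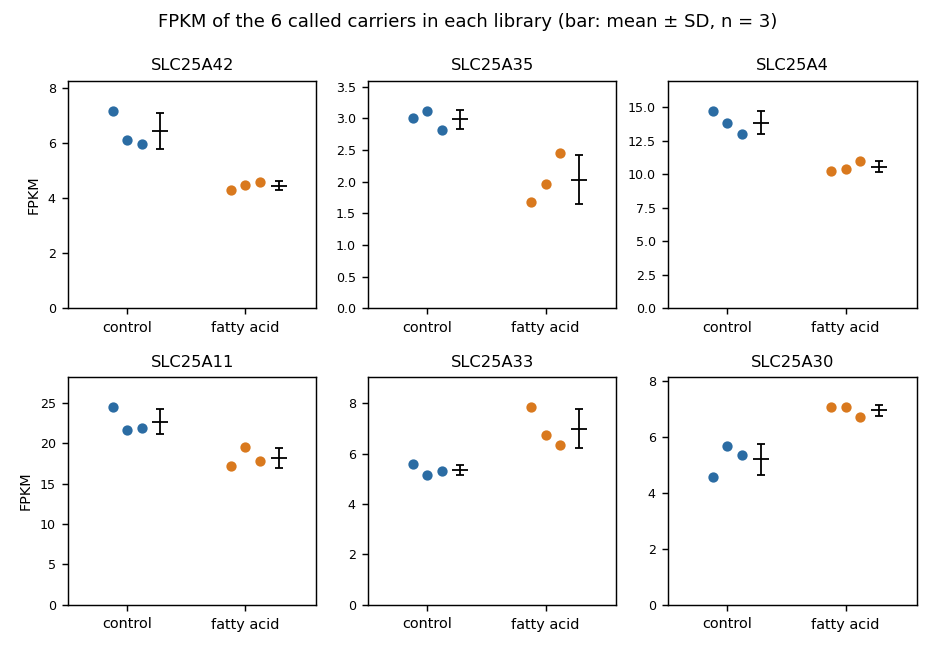
FPKM of the 6 called carriers in each library (y axes from 0), with the mean ± SD of 3 libraries beside the points. In each panel the 3 fatty acid points lie on 1 side of the 3 control points: below for SLC25A42, SLC25A35, SLC25A4 and SLC25A11, above for SLC25A33 and SLC25A30.

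Among the carriers with no settled substrate, SLC25A35 fell (chromosome 17, 8287763 to 8295343). It had 3.01, 3.12 and 2.82 FPKM in controls and 1.69, 1.97 and 2.45 FPKM with fatty acid, from 55 to 152 reads a library. The groups did not overlap, and the mean fell by 31.8% (-0.47 ± 0.12, limma adjusted p = 0.0468). The call was lost in 10 of 17 alternatives, among them those without control replicate 1 (0.086), 2 (0.0922) or 3 (0.0879), without fatty acid replicate 1 (0.144) or 2 (0.146), with quantile normalization (0.0512), TPM (0.0652) or no filter (0.12), and without the intensity trend (0.0636). It overlaps RANGRF (0.951 FPKM) on the other strand over 1596 bases.

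SLC25A43 (chromosome X, 119399060 to 119454478), which lies upstream of SLC25A5 on the same strand, was the highest of these, with 11.3, 11.0 and 11.1 FPKM in controls and 10.7, 13.4 and 11.6 FPKM with fatty acid, overlapping (0.09 ± 0.08, limma adjusted p = 0.508). SLC25A46, an outer membrane protein that acts in mitochondrial fission and fusion, had 7.99 ± 0.275 and 8.53 ± 0.207 FPKM (adjusted p = 0.356 by limma). SLC25A45, SLC25A53 and SLC25A34 lay between 0.297 and 2.19 FPKM in all libraries, with adjusted p of 0.215, 0.324 and 0.948 by limma. SLC25A47, known as a liver-enriched carrier, had only 14 reads in control and 6 in fatty acid libraries and was not tested. SLC25A48 had 0 reads in all 6, which allows up to 0.0223 FPKM in controls and 0.0156 FPKM with fatty acid.

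Proteins with the carrier fold under other names gave no call. MTCH1 and MTCH2, which sit in the outer membrane, had 33.2 ± 3.76 and 46.4 ± 2.38 FPKM in controls and 31.0 ± 0.127 and 44.4 ± 1.05 FPKM with fatty acid (0.475 and 0.48 by limma). UCP1 and UCP2 are listed at 0 in all libraries, and UCP3 lay at 0.251 ± 0.00777 and 0.118 ± 0.0525 FPKM, under the minimum. SLC25 proteins are made in the cytosol and reach the inner membrane through the TOM and TIM22 complexes. Of 13 genes of that route 1 rose and 0 fell, or 7.69% called beside 12.9% of all genes (2 higher and 0 lower with voom). The riser was TIMM9, a small chaperone that escorts carriers across the intermembrane space. It went from 11.3 ± 0.521 to 14.1 ± 0.264 FPKM (0.31 ± 0.06, limma adjusted p = 0.0172).

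Of 11 enzymes tested that work with the shuttles and citrate, 1 fell and 1 rose, or 18.2% called beside 12.9% of all genes. With limma voom 1 was lower and 2 were higher. GLUD1, glutamate dehydrogenase, had 54.6 ± 3.09 FPKM in controls and fell to 41.3 ± 1.11 FPKM (-0.40 ± 0.06, limma adjusted p = 0.00647). GPD2, the mitochondrial enzyme of the glycerol phosphate shuttle, rose from 4.87 ± 0.433 to 6.28 ± 0.492 FPKM (0.34 ± 0.09, 0.048). In the carnitine route by which long-chain fatty acids enter the matrix, 1 of 5 tested genes passed (1 higher and 2 lower with voom). CPT1A, the gatekeeping enzyme, had 31.6 ± 2.25 FPKM in controls and rose to 42.1 ± 1.34 FPKM (0.41 ± 0.06, limma adjusted p = 0.00901). CRAT and CPT1B were lower without overlap but did not pass (-0.21 and -0.42, limma adjusted p = 0.0557 and 0.15).

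The genes that surround SLC25A4 and SLC25A3 in function did not pass, where 12.9% of all genes did. Of 16 ATP synthase genes 0 were called (limma; 3 at an unadjusted p under 0.05, 1 lower with voom), and ATP5D had the smallest p, with 45.5 ± 7.11 and 35.5 ± 1.31 FPKM (adjusted p = 0.0682). Of 9 regulators of mitochondrial biogenesis 0 were called (limma; 4 at an unadjusted p under 0.05, 2 higher with voom), TFAM being nearest with 11.8 ± 0.723 and 14.5 ± 1.24 FPKM (adjusted p = 0.0547).

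**Figure D4:**
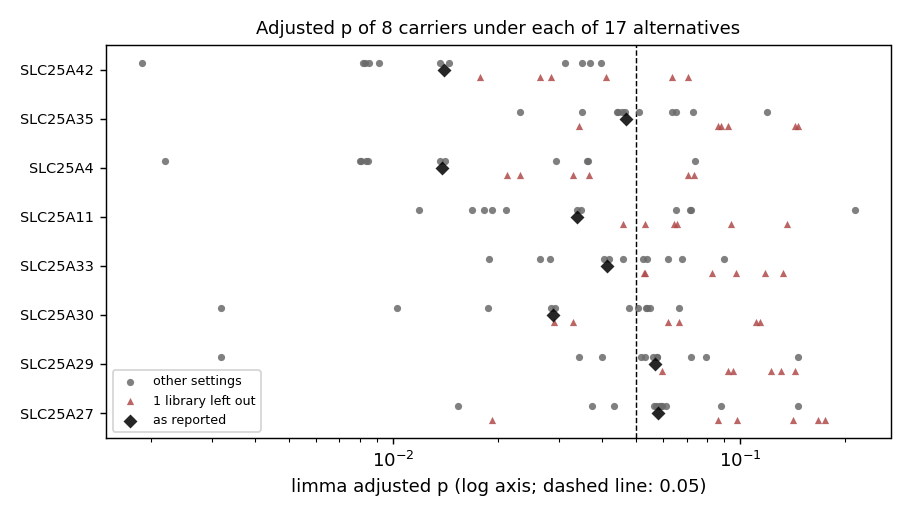
Limma adjusted p (log axis, dashed line at 0.05) of the 6 called carriers and the 2 nearest to the threshold, as reported (diamonds), with 1 library left out (triangles) and under the 11 other settings (circles). SLC25A42 and SLC25A4 stay left of the line in 15 and 14 of 17 alternatives, while the other 6 spread across it.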

How the data were processed

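RNA from 3 control and 3 fatty acid samples was made into stranded mRNA libraries from 100 ng each, per the labels' protocols. Per the submitters' processing notes, the tools included featureCounts, Subread 1.5.1 and STAR 2.5.2, and the build was GRCh38. Whether counting used strand, and the annotation release, are not stated in the sources. FPKM values, to 3 decimals, were deposited by the authors in 1 table whose header also names length, position, strand and type of each gene.

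FPKM times length fell on whole multiples of 1 step in each library (99.97% to 100% of the values printed finely enough, within 0.02 reads beyond rounding), which gave the reads and depth. Libraries of a group differed by more than sampling noise (chi-square per gene 2.25 to 8.9). Groups and replicate numbers came from the titles.

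Limma 3.58.1 (R 4.3.3, intensity trend) was run on all genes averaging 0.5 FPKM or more, on log2(FPKM + 0.5), Benjamini-Hochberg adjusted over all 14661 genes, threshold 0.05, with no covariate. A p given after a gene is the limma adjusted p, and fold changes carry ± SE. Values with ± beside FPKM are means ± SD with n = 3. The fit was tested on simulated data. Values per library were given for called carriers and the highest of each substrate class, and group means for up to 3 called genes, or the nearest, of other lists. SLC25A24, SLC25A27 and SLC25A29 were added after their values were seen, as were MTCH1, MTCH2 and the UCP genes. Members and lists were chosen with earlier results of these data known. The 17 alternatives are other pseudocounts (0.1 and 1), filters, scalings, models, and each library left out. They were followed gene by gene for the carriers only. Python 3.11.15 and matplotlib 3.10.9 were used. Promoter sequences are RefSeq's. The single values of 1 tested carrier with no call, and 1 list of other genes, are not reported here.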

Additional observations from a re-analysis of the deposited data

How the results depend on the processing

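Both pseudocounts kept 2 higher and 4 lower carriers. The number higher was 0 with no expression filter, with median-of-ratios, quantile or nuclear-read scaling and without the intensity trend (limma; 2 or 3 higher at an unadjusted p under 0.05 in each). The number lower was 2 with no filter and without the trend, 1 after rescaling to TPM and 7 with limma voom. Leaving out 1 library gave 0 to 1 higher and 0 to 4 lower, and 0 in both directions without fatty acid replicate 1 (9 carriers at an unadjusted p under 0.05) or 2 (8). Over all genes the calls, 1205 higher and 686 lower, became 640 and 337 with no filter, 642 and 459 without the trend, 2615 and 408 in TPM, 1846 and 1153 with voom, 779 and 818, 758 and 772, and 706 and 828 under median-of-ratios, quantile and nuclear scaling, and 230 to 1109 and 233 to 686 with 1 library left out. The cause was not tested.

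Same-numbered libraries showed little shared deviation (r of 0.0122, 0.0836 and 0.0224, against -0.094 to 0.0731 for other pairs). Not every library correlated best with its own number. With 3 libraries a group, these values cannot decide whether the numbers pair the samples. A replicate block gave 2 higher and 4 lower carriers: SLC25A11 (limma adjusted p = 0.0655) and SLC25A35 (0.0732) missed the threshold, and SLC25A27 (0.0434) and SLC25A29 (0.0344) passed it. Over all genes the block gave 817 higher and 657 lower.

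Log2 fold changes that turned sign all belonged to carriers with no call. In TPM they were 0.12 for SLC25A25, 0.056 for SLC25A38, 0.063 for SLC25A18, 0.023 for SLC25A39, 0.013 for SLC25A28, 0.047 for SLC25A26 and 0.094 for SLC25A16. SLC25A40 was at -0.028, -0.013 and -0.040 under median-of-ratios, quantile and nuclear scaling, SLC25A51 at -0.017 and -0.027 under the median-of-ratios and nuclear scalings, and SLC25A34 at -0.010 with voom. With 1 library left out the range was -0.099 to 0.042 for SLC25A25, -0.011 to 0.083 for SLC25A44, -0.21 to 0.043 for SLC25A39, -0.041 to 0.077 for SLC25A40, -0.24 to 0.26 for SLC25A34, -0.16 to 0.021 for SLC25A26, -0.10 to 0.027 for SLC25A16 and -0.063 to 0.12 for SLC25A51. Few reads limit the untested SLC25A36, SLC25A47, SLC25A12 and SLC25A52, which had 3 to 23 reads in a group. SLC25A12 also overlaps HAT1 (5.44 FPKM) on the other strand over 61235 bases. Without a stated strand setting, reads there cannot be assigned with certainty.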
